A study of Mus musculus with 22 samples.

Results

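The cytosolic ribosomal protein genes described here were the protein-coding genes of the count table whose mouse symbol begins with Rpl or Rps and a number, together with Rplp0, Rplp1, Rplp2 and Rpsa. S6 kinases, which share the Rps prefix, and pseudogenes were left out. The rule found 84 genes of the 15448 in the table, 50 with large-subunit and 34 with small-subunit symbols, and used no measured value beyond presence in the table. All 84 passed the filter on low counts that left 14785 genes for testing.

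The RNA came from livers of 22 male CD2F1 mice, all wild type (WT), in 3 groups. CT mice (n = 6) were sham-injected and carry the treatment label vehicle. C26 mice (n = 8) received C26 cells, a mouse colon carcinoma line whose transplants cause cachexia, a wasting of muscle and fat. C26-TDCA mice (n = 8) received C26 cells and 10 mg/kg of the bile acid taurodeoxycholic acid (TDCA) by daily intraperitoneal injection. Every tumour-bearing mouse carried the same transplanted line. The labels give no age, tumour size or time after injection, and name a vehicle for CT alone, so TDCA and the act of daily injection cannot be told apart. Whether C26 mice received a vehicle is not stated, so tumour and vehicle cannot be told apart between C26 and CT. The study asks how TDCA acts on the liver of cachectic mice.

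Each ribosome joins a small subunit, which reads the messenger RNA, and a large subunit, which forms peptide bonds, and each subunit holds ribosomal RNA and 1 copy of most of its proteins. Ribosomal protein transcripts are among the most abundant of a cell, are made in near-equal amounts and often begin with a run of pyrimidines, the 5′ TOP motif, through which mTORC1 and LARP1 set how well they are translated. In liver, which makes most plasma proteins, ribosome number follows feeding and growth. The data here are transcript levels and hold no measurement of translation or of ribosomes.

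Libraries held 16.5 M to 28.3 M counts, each taken as 1 mouse, so that p-values measure the spread between mice. Levels below are CPM, counts per M of library size, scaled by TMM, a method that centres the bulk of genes, and differences are log2 fold changes from edgeR's quasi-likelihood fit over all genes, with a Benjamini-Hochberg adjusted p under 0.05 counted as called. A count of 3 corresponded to 0.10 to 0.18 CPM, depending on the library. The 10 hepatocyte markers, led by Alb, summed to between 57800 and 76740 CPM in each library, so that the tissue label held. The 20 most abundant genes, none of them a ribosomal protein gene, took a mean of 21.8% of counts in CT, 37.6% in C26 and 36.7% in C26-TDCA. No 2 libraries of a group agreed within sampling noise (the closest had a chi-square of 9.99 per degree of freedom). In C26 replicate 6 and C26-TDCA replicate 7 the ribosomal protein level was the highest of its group, and values without them are given beside the counts they touch.

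Measured against the bulk of genes, most ribosomal protein transcripts were higher in C26 livers than in CT. Of 84 genes, 61 rose and 2 fell, Rps27l and Rpl35a, while 21 were not called. Over all genes tested 28.9% rose and 29.2% fell in the same fit. The median log2 fold change was 0.27 over the 84 genes, a 1.21-fold difference, against -0.00 over all genes, and 79 of the 84 lay above 0. The changes were small. A log2 fold change above 0.5 was found for 12 genes, of which Rpl36al, at low counts, was not called. In 18 genes every C26 library lay above every CT library, as it did in 14.2% of all genes tested. Of the 84 genes, 1 was lower in every C26 library, Rps27l. Without C26 replicate 6 the count was 56 higher and 2 lower.

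The direction of this difference depended on how libraries were scaled. With libraries scaled to their total count alone, the median of all genes moved to -0.34, 7 of the 84 rose and 19 fell, and 22 lay above 0. Over all 14785 genes tested, 2292 (15.5%) rose and 7872 fell under total counts. Among all genes called, 49.7% were higher under TMM and 22.5% under total counts. Relative to the median of all genes the 84 lay 0.27 higher under TMM and 0.27 higher under total counts. A scaling shifts all genes of a library by the same amount, so this gap could hardly change and is no separate result. The genes called higher under both scalings were Rps10, Rpl41, Rps20, Rps12, Rplp1, Rplp0 and Rpl12. Rps27l and Rpl35a were called lower under both.

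**Figure D1:**
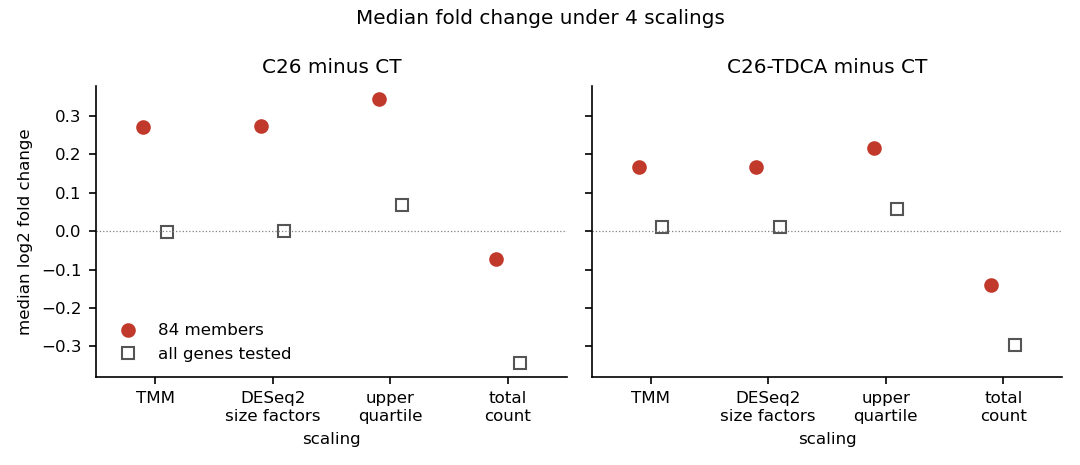
Median log2 fold change (vertical axis) of the 84 ribosomal protein genes (filled circles) and of all genes tested (open squares) under 4 scalings (horizontal axis), for C26 minus CT (left) and C26-TDCA minus CT (right). Total-count scaling moves both medians below 0 (all genes -0.34 and -0.30). The gap between members and all genes is nearly fixed, because a scaling shifts all genes of a library alike.

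The share of all counts in the 84 genes shows the same dependence on what it is taken over. It ran from 1.06% to 1.23% in CT (median 1.13%), from 0.968% to 1.28% in C26 (median 1.09%) and from 0.948% to 1.20% in C26-TDCA (median 1.03%). These ranges overlapped. With the 20 most abundant genes taken out of the total, the median share was 1.44% in CT, 1.77% in C26 and 1.62% in C26-TDCA, and 7 of 8 C26 libraries but 6 of 8 C26-TDCA libraries lay above the highest CT library at 1.57%. In bulk tissue, a different mix of cells and a different amount of each RNA per cell cannot be told apart.

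**Figure D2:**
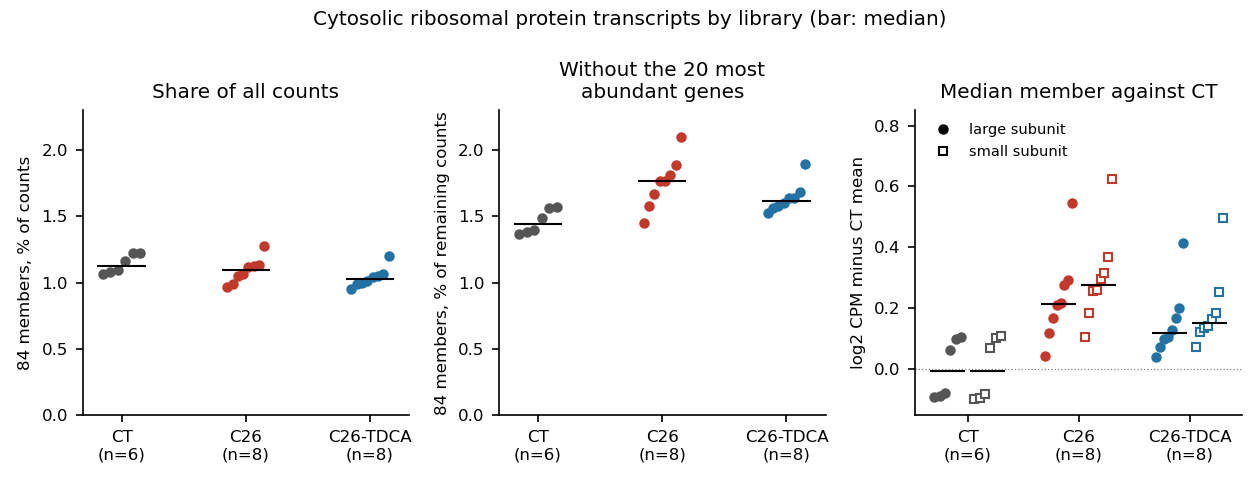
Summed level of the 84 genes by library: percent of all counts (left), percent of counts without the 20 most abundant genes (middle) and the median member's log2 CPM minus its CT mean, for large (filled) and small (open) subunit genes (right, TMM scaling). Each point is a library and bars are medians. C26 replicate 6 (0.55 and 0.62) and C26-TDCA replicate 7 (0.41 and 0.50) are the highest points of the right panel.

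The large and small subunits moved in the same direction, the small by slightly more. Among the 50 large-subunit genes 35 rose and 1 fell, with a median of 0.24 (-0.10 under total-count scaling), and among the 34 small-subunit genes 26 rose and 1 fell, with a median of 0.30 (-0.05 under total-count scaling). Taken library by library, the median small-subunit gene minus the median large-subunit gene, each relative to CT, was 0.02 to 0.10 in the 8 C26 libraries and -0.00 to 0.08 in the 8 C26-TDCA libraries, against -0.01 to 0.00 in CT, where it is centred on 0 by construction. All 8 C26 libraries lay above the highest CT library. This difference does not depend on the scaling of a library, and no test was made of it. Large-subunit genes held a mean of 57.0% of the members' counts in CT, 56.4% in C26 and 56.8% in C26-TDCA. By this measure the groups overlapped (56.38% to 57.66%, 55.48% to 57.24% and 54.79% to 57.75%). Rps9 alone held 6.2% of the members' counts, and the log2 of its share had SDs of 0.18 to 0.33 within groups. Its part in the overlap was not tested.

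**Figure D3:**
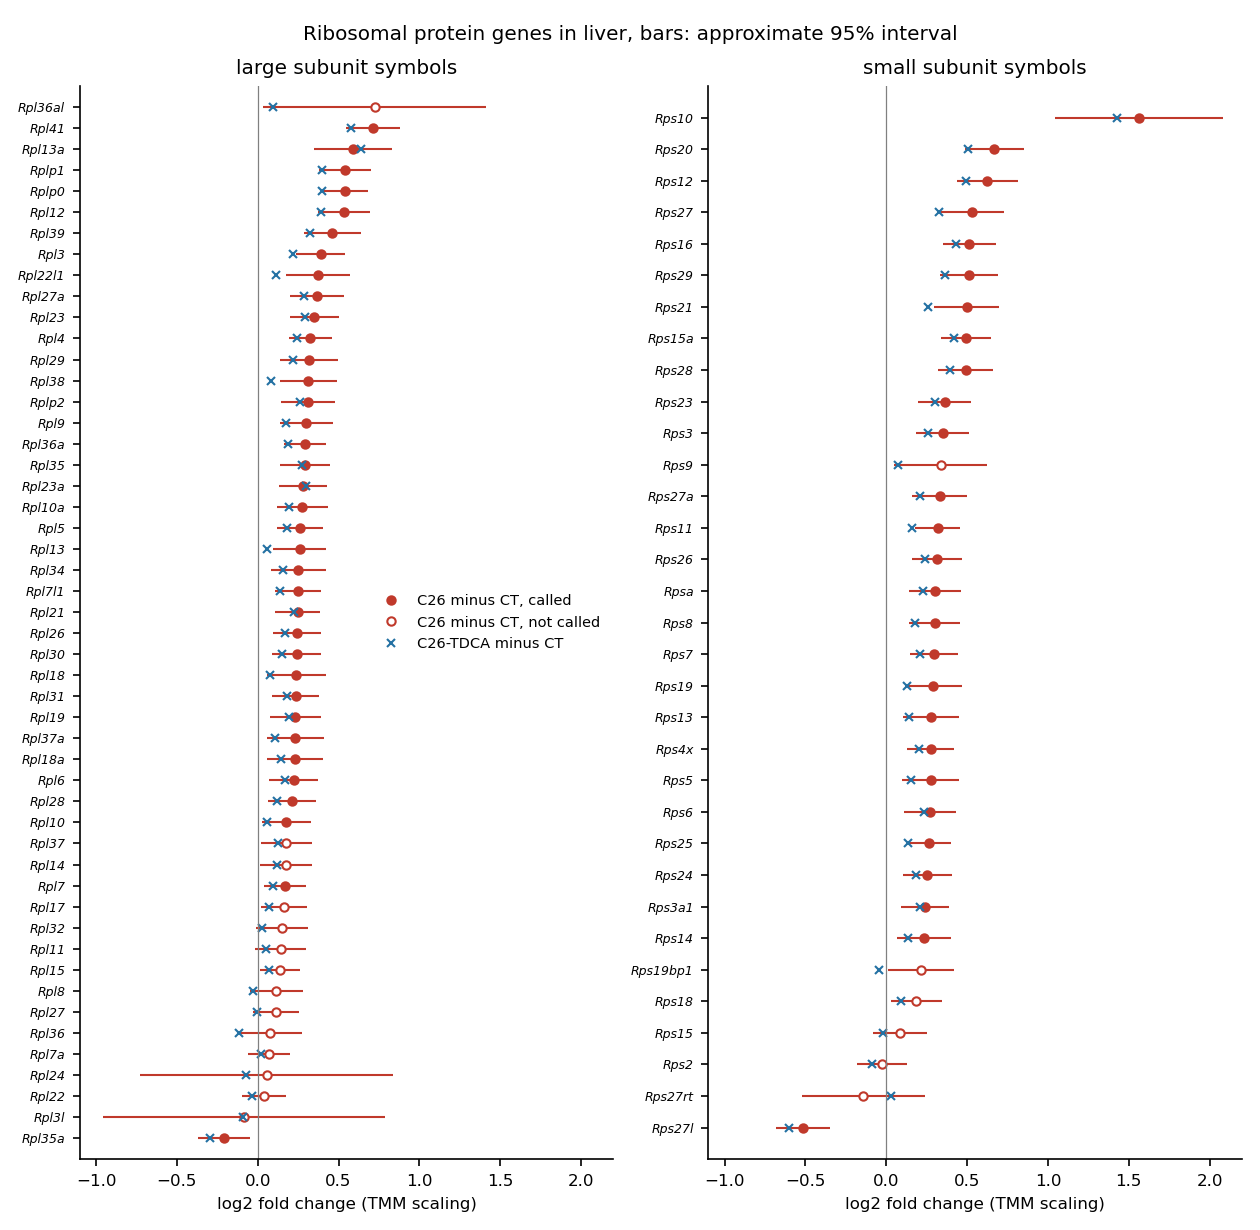
Log2 fold change (horizontal axis, TMM scaling) of large-subunit (left) and small-subunit (right) genes. Red circles are C26 minus CT with an approximate 95% interval, filled where called, and blue crosses are C26-TDCA minus CT. Most genes lie between 0 and 0.5 under this scaling, though not under total-count scaling, and Rps10 (1.56) and Rps27l (-0.52) are the ends of the right panel.

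Per kilobase of exon, the most abundant members over all libraries were Rplp1 at 450 CPM per kb, Rps9 at 269 and Rpl4 at 225, and the least abundant were Rpl3l at 0.231 and Rpl24 at 0.405. The length joins all annotated exons of a gene, 499 bases for Rplp1 and 6270 for Rps15a, so the order depends on the annotation. Among the 84, 8 genes averaged under 10 CPM and 3 under 1 CPM, while 72 reached 50 CPM. Exons of 12 members overlap another annotated gene over more than 20% of their length, and 60 members have a named pseudogene copy. How reads matching several genes were counted is not known here, so these levels are uncertain. Rpl24, Rpl13a, Rps10 and Rpl36al are both low and overlapped (47.0%, 35.4%, 28.7% and 24.5% of exon bases), and their low counts need not reflect their transcripts.

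The stalk of the large subunit, which recruits the elongation factors, rose in all the members measured. Rplp0, Rplp1 and Rplp2 form the stalk and Rpl12 sits at its base, and 4 of these 4 rose, with a median log2 fold change of 0.54 (3 of 4 and 0.19 under total-count scaling). The sets of genes by place in the ribosome were drawn up after values had been seen. Rplp1 ran from 164 to 190 CPM in CT (median 174), from 227 to 324 in C26 (median 248) and from 196 to 269 in C26-TDCA (median 229). The lowest tumour-bearing library thus lay above the highest CT library. Its log2 fold change in C26 was 0.54 ± 0.08 (SE, adjusted p = 4.6e-06), or 1.46-fold. Rplp0 lay at 91.0 to 107 CPM in CT (median 99.8) and 124 to 170 in C26 (median 144), again without overlap. Its log2 fold change was 0.54 ± 0.07 (adjusted p = 6.4e-07). Rpl12 rose by as much (0.54 ± 0.08, adjusted p = 4.3e-06), and Rplp2 by less (0.31 ± 0.09, adjusted p = 0.0031), with overlapping groups.

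Among proteins around the site of peptide bond formation and the path of transfer RNA, Rpl3 rose (0.39 ± 0.08) and Rpl10 rose by 0.18 ± 0.08, close to the threshold (adjusted p = 0.048), while under total-count scaling Rpl3 was at 0.05, not called, and Rpl10 fell. Rpl8 was not called (0.11 ± 0.08) and fell under total-count scaling (-0.23). Of the pair that binds the 5S RNA and can also bind MDM2, Rpl5 rose (0.26 ± 0.07) and Rpl11 was not called (0.14 ± 0.08), while under total-count scaling Rpl5 was at -0.08, not called, and Rpl11 fell (-0.20). Of 9 genes for the tunnel through which the new chain leaves and its rim, 7 rose, and under total-count scaling 0 rose and 2 fell. They included Rpl4, which lines the tunnel and ran from 361 to 425 CPM in CT (median 377) and from 438 to 565 in C26 (median 473), without overlap. Rpl39, also in the tunnel wall, had a log2 fold change of 0.46 ± 0.09. Rpl22 and Rpl17 were not called (0.04 ± 0.07 and 0.16 ± 0.07), and were the 2 that fell under total-count scaling (-0.30 and -0.18).

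The typical member is shown by Rpl21 and Rps7, the genes nearest to the median of their subunits. Rpl21 ran from 49.1 to 60.6 CPM in CT (median 54.8) and from 58.2 to 79.8 in C26 (median 63.6), with a log2 fold change of 0.25 ± 0.07. Rps7 ran from 128 to 144 CPM in CT (median 138) and from 138 to 198 in C26 (median 167), with a log2 fold change of 0.30 ± 0.08. In both, C26 libraries overlapped the upper CT values. The smallest rises that were called were those of Rpl7 (0.17), Rpl10 (0.18), Rpl28 (0.21) and Rpl6 (0.22). Rpl7a was not called (0.07 ± 0.07). Rps4x and Rpl36a rose by 0.28 and 0.29, both without overlap, and Rps24 by 0.25 with overlap. All of these were below 0 under total-count scaling, between -0.05 (Rps7) and -0.27 (Rpl7a).

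Rpl41 encodes a very short, basic peptide that bridges the subunits, and its rise had the smallest adjusted p of the 84. It ran from 127 to 153 CPM in CT (median 141), from 195 to 297 in C26 (median 228) and from 183 to 244 in C26-TDCA (median 206). All 16 tumour-bearing libraries lay above all 6 CT libraries. The log2 fold change in C26 was 0.71 ± 0.08 (adjusted p = 1.1e-07), or 1.64-fold. Rpl13a, whose product also blocks translation of some inflammatory transcripts, rose by 0.59 ± 0.12 from a level of 3.54 to 4.95 CPM in CT (median 4.33). Under total-count scaling Rpl13a was at 0.25, not called.

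Rpl35a, a large-subunit gene mutated in some Diamond-Blackfan anaemia, went the other way. It ran from 103 to 134 CPM in CT (median 120), from 85.9 to 127 in C26 (median 102) and from 87.1 to 117 in C26-TDCA (median 95.7). The groups overlapped. It fell by 0.21 on the log2 scale in C26 (adjusted p = 0.031) and by 0.30 in C26-TDCA (adjusted p = 0.0033). The first of these calls was lost under 6 other settings and on leaving out any 1 of C26 replicates 2, 4 and 7 or CT replicates 2, 6 and 7, with -0.17 without CT replicate 6. Relative to the summed count of the 84 genes it was 0.49 lower in C26 than in CT on the log2 scale.

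In the small subunit, 11 of 14 genes of the head, the part that swivels as the ribosome moves, rose, with a median of 0.34 (3 rose and 2 fell, median -0.00, under total-count scaling). Rps20 ran from 72.5 to 85.3 CPM in CT (median 79.9) and from 102 to 160 in C26 (median 123), without overlap. Its log2 fold change was 0.67 ± 0.09 (adjusted p = 1.3e-06). Rps12 ran from 93.6 to 126 CPM in CT (median 104) and from 125 to 215 in C26 (median 158), so that 1 C26 library fell below the highest CT library. Its log2 fold change was 0.63 ± 0.10 (adjusted p = 6.3e-06). Rps16 (0.51 ± 0.08) and Rps29 (0.51 ± 0.09) rose with no overlap between groups, and Rps15 and Rps18 were not called (0.09 and 0.19). Under total-count scaling Rps16 and Rps29 were each at 0.17, not called, while Rps15 fell (-0.26) and Rps18 was not called (-0.16).

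Rps10 had the highest log2 fold change of all (1.56 ± 0.27, adjusted p = 1.9e-05), on few reads. It ran from 0.299 to 2.00 CPM in CT (median 1.18), from 2.2 to 5.4 in C26 (median 3.45) and from 2.65 to 3.83 in C26-TDCA (median 3.44). Both tumour-bearing groups lay above CT and overlapped each other. The gene (chr17:27630418-27636669, GRCm38, minus strand) shares exon bases with 2 other annotated genes, RPS10-NUDT3 and Gm15420, so its own reads cannot be told apart from theirs.

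At the messenger RNA entry, exit and platform of the small subunit, Rpsa, Rps14 and Rps26 rose (0.30, 0.23 and 0.31, and -0.04, -0.11 and -0.03 under total-count scaling), and Rps2 was not called (-0.03 ± 0.08) but fell under total-count scaling (-0.37). Rps6, the substrate of the S6 kinases, ran from 174 to 205 CPM in CT (median 189) and from 186 to 277 in C26 (median 226). It rose by 0.27 ± 0.08 (adjusted p = 0.0073), with overlapping groups, and was at -0.08 under total-count scaling. Rps9, which lies at the entry side of the mRNA channel, ran from 475 to 703 CPM in CT (median 622) and from 574 to 1022 in C26 (median 701). Its log2 fold change of 0.34 ± 0.15 was not called (adjusted p = 0.053). It was called by DESeq2 and under 6 other settings, and on leaving out any 1 of 6 libraries, among them CT replicates 1 and 8. Under total-count scaling it was at -0.01, not called.

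**Figure D4:**
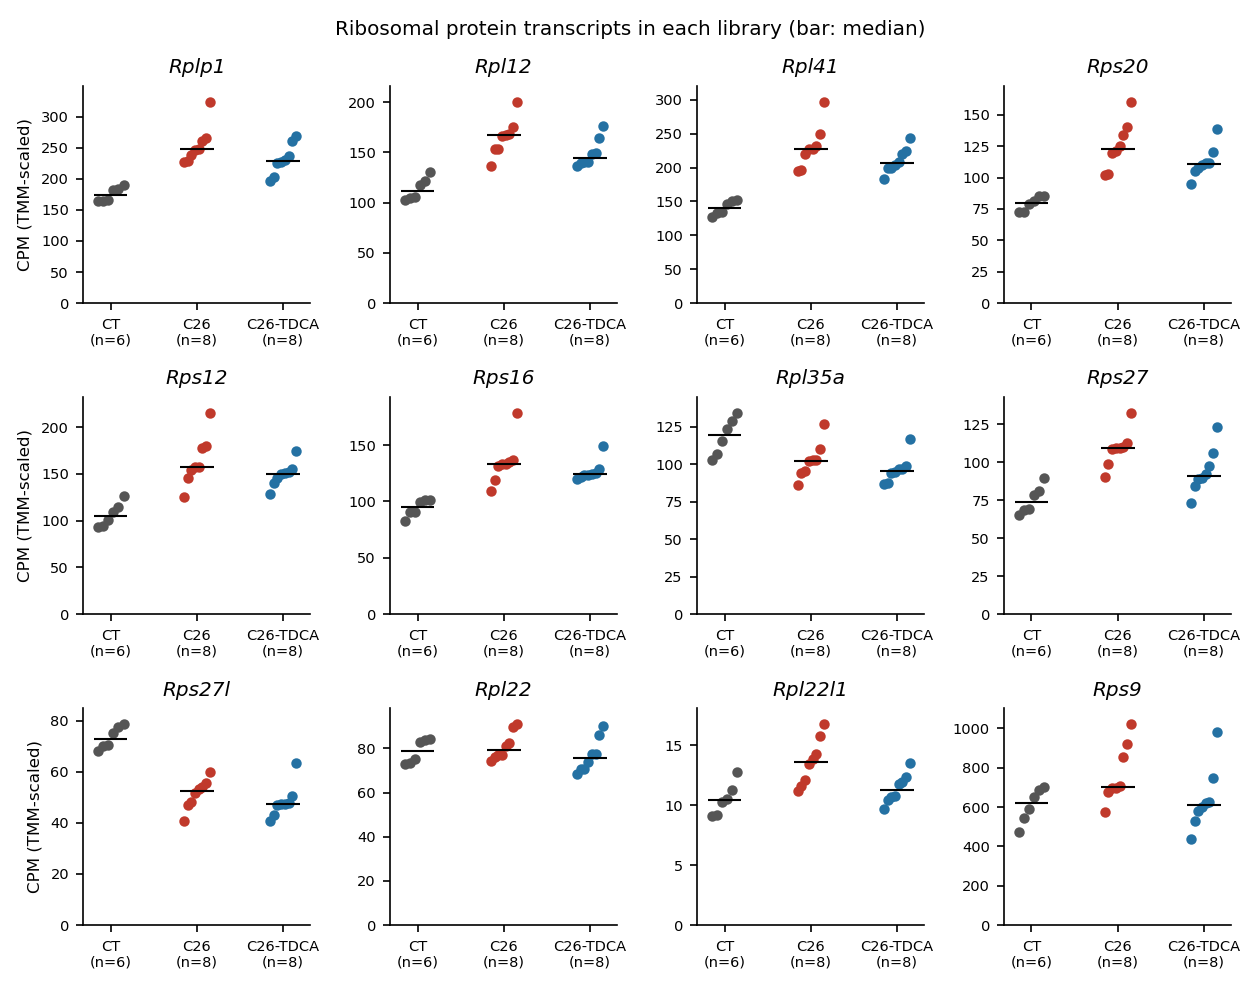
TMM-scaled CPM (vertical axes, from 0) of 12 ribosomal protein genes in each library, by group (horizontal axes), with bars at group medians. Rplp1, Rpl12, Rpl41, Rps20, Rps16 and Rps27 in C26 lie wholly above CT, Rps27l wholly below, and Rpl22 overlaps in all groups.

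The set holds 5 paralogs and copies of other members, which took separate courses. Of the 5, Rpl22l1 rose and Rps27l fell, while Rpl3l, Rpl36al and Rps27rt were not called (-0.09 ± 0.45, 0.72 ± 0.35 and -0.14 ± 0.19), each at low counts. Under total-count scaling none of the 5 rose, with Rpl22l1 at 0.03, and Rps27l (-0.86) and Rps27rt (-0.49) fell. Rps27 and Rps27l encode near-alike small-subunit proteins, and Rps27l is a known p53 target. Rps27rt is a retrogene of Rps27. Rps27 ran from 65.5 to 89.4 CPM in CT (median 73.7) and from 90.0 to 132 in C26 (median 110), and rose by 0.53 ± 0.10 (adjusted p = 6.5e-05). Under total-count scaling Rps27 was at 0.19, not called. Rps27l ran from 68.3 to 78.7 CPM in CT (median 72.8), from 40.7 to 59.8 in C26 (median 52.5) and from 40.7 to 63.5 in C26-TDCA (median 47.4). Every tumour-bearing library was below every CT library. It fell by 0.52 on the log2 scale in C26 (SE 0.09, adjusted p = 1.3e-05), to 0.699 of the CT level.

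The log2 ratio of Rps27l to Rps27, which no library scaling can change, was -0.03 ± 0.13 in CT (SD, n = 6), -1.09 ± 0.21 in C26 (SD, n = 8) and -0.96 ± 0.14 in C26-TDCA (SD, n = 8). These are ratios of CPM, not adjusted for transcript length. Ratios of 6 pairs were each tested in 3 comparisons with an exact permutation test, two-sided, and p-values were adjusted over all 18. For Rps27l over Rps27 the C26 difference of -1.06 had an exact permutation p = 0.000666 (adjusted 0.00599), the smallest that 6 against 8 libraries can give, and the C26-TDCA difference from CT of -0.93 had the same p. Rpl22l1 over Rpl22 was higher in C26 by 0.33 (exact permutation p = 0.002, adjusted 0.012), and C26-TDCA differed from CT by 0.16 (adjusted 0.309). Rps27rt over Rps27 was lower in C26 by 0.72 (exact permutation, adjusted p = 0.030), on 1.07 to 2.47 CPM of Rps27rt.

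**Figure D5:**
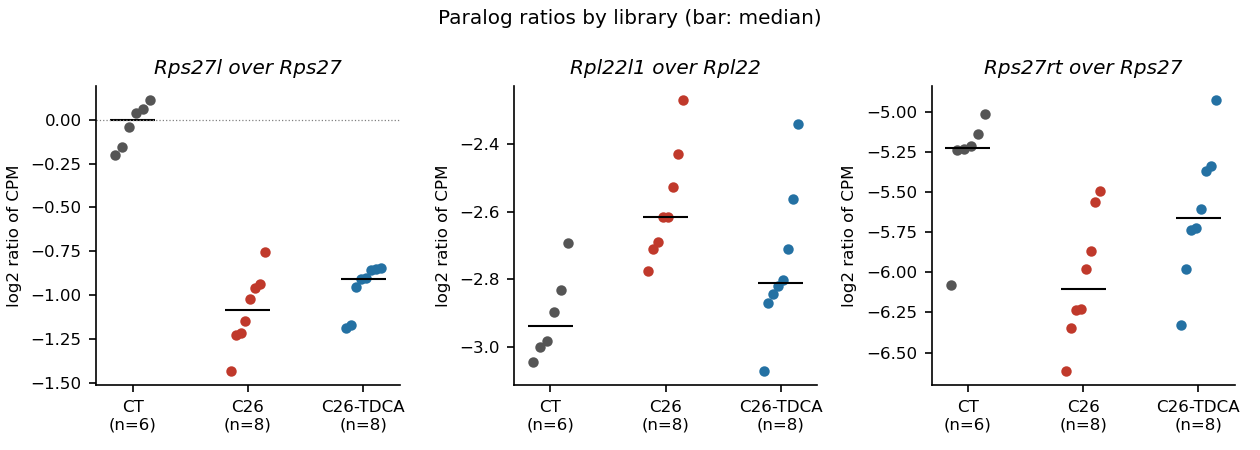
Log2 ratio of CPM (vertical axes) of 3 paralog pairs in each library, by group, with bars at medians. Rps27l over Rps27 lies around 0 in CT and between -1.43 and -0.75 in C26, without overlap; the other ratios overlap between groups.

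Transcript starts of these genes are shown because Rps27 rose and Rps27l fell under TMM, though Rps27 was not called under total-count scaling. Rpl12 and Rpl41 were among those that rose most, with and without a pyrimidine tract at the annotated start. Each stretch holds 50 bases before and 25 bases from the RefSeq start on GRCm38.p6, written 5′ to 3′. Capitals mark a pyrimidine tract at the start, here a C within 5 bases of the start followed by at least 4 more pyrimidines.
Rps27 (chr3:90213624-90213698, minus strand): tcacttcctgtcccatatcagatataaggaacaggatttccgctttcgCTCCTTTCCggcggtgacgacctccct
Rps27l (chr9:66946036-66946110, plus strand): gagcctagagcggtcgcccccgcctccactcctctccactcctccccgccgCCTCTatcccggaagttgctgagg
Rps27rt (chr9:114982715-114982789, minus strand): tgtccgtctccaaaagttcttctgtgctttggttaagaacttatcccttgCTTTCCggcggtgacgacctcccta
Rpl12 (chr2:32961662-32961736, plus strand): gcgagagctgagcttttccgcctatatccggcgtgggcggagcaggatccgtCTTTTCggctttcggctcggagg
Rpl41 (chr10:128549144-128549218, minus strand): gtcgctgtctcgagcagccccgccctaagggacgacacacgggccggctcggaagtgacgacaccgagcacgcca
Rps27 and its retrogene share a run of 24 bases that lies after the start of Rps27 and begins at that of Rps27rt, so reads from the beginning of the 2 transcripts are hard to assign. Rps27 and Rps27l share no run over 6 bases in these windows. A second annotated start of Rps27l has no tract.

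RefSeq windows from 250 bases before to 50 after the start were matched for 64 of the 84 genes. A pyrimidine tract at the start was found in 30 of these (46.9%), against 21.2% of 27025 gene symbols. The ETS core CCGGAA, on either strand, was in 54.7% of members and 16.7% of all, and the GC box GGGCGG in 62.5% and 38.2%. The YY1 core AAGATGG was in 15.6% of members and 7.28% of all, the E-box CACGTG, which MYC can bind, in 9.38% and 8.09%, and TATAAA in 10.9% and 15.7%. The median log2 fold change in C26 under TMM was 0.28 over the 30 members with a tract, of which 21 rose, and 0.27 over the 34 without, of which 25 rose, and the difference was not tested. A match of letters is no evidence of binding.

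TDCA made no called difference to any of the 84 genes. In C26-TDCA against C26, edgeR called 0 higher and 0 lower, where 1.73% of all genes rose and 0.237% fell. The smallest adjusted p was 0.146. Before adjustment 9 genes passed 0.05 in edgeR and 12 in DESeq2, which likewise called 0. The estimates leaned down: 81 of 84 were below 0, with a median of -0.09 for the large and -0.10 for the small subunit, against -0.01 over all genes. The 84 genes rise and fall together between libraries, so this count is not 84 separate observations. The lean moved with single libraries, from -0.05 in both subunits without C26 replicate 6 to -0.13 and -0.15 without C26-TDCA replicate 7. The approximate 95% intervals of 78 genes lay wholly between -0.5 and 0.5. Those of Rpl24, Rpl36al, Rpl3l, Rps10, Rps27rt and Rps9 did not. The lowest values with an unadjusted p under 0.05 were Rps19bp1 (-0.26 ± 0.10, adjusted p = 0.16) and Rpl22l1 (-0.26 ± 0.09, adjusted p = 0.15).

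In C26-TDCA against CT, a comparison that shares its CT libraries with C26 against CT, 39 genes rose, 2 fell and 43 were not called. Over all genes 28.7% rose and 28.2% fell. The median was 0.15 for the large subunit, where 20 of 50 rose, and 0.20 for the small, where 19 of 34 rose. The 39 were all among the 61 that rose in C26, and Rps27l and Rpl35a fell in both. Set side by side, Rpl41 was 0.71 in C26 and 0.58 in C26-TDCA, Rps20 was 0.67 and 0.50, Rplp1 was 0.54 and 0.40, Rps15a was 0.49 and 0.42, Rpl10 was 0.18 and 0.06, and Rps27l was -0.52 and -0.60. Rpl13a was an exception (0.59 and 0.64). The direct comparison of the groups, above, called none of these differences. The count of 39 depended on settings: it was 29 without C26-TDCA replicate 7, 28 without CT replicate 5 or 8, and 60 with the trend on transcript length and GC content removed. With that trend removed, 29.4% of all genes tested rose. Under total-count scaling 4 rose and 28 fell, with medians of -0.16 and -0.10. Of all 14785 genes tested, 2423 (16.4%) then rose and 7397 fell. The share of all called genes that were higher went from 50.4% to 24.7%.

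Ribosomal protein transcripts deviated together within groups. Over the 22 libraries, the median correlation of deviations from the group mean between pairs of the 76 members with at least 10 CPM was 0.81, a description in which the points share library scaling. The members least like the rest were Rps9 (correlation with the median member 0.33), Rpl7l1 (0.40), Rpl22l1 (0.46) and Rps27l (0.55), and the next, Rpl35, was at 0.78. Spread itself was ordinary, with a median coefficient of variation between mice of 11.5% for members and 11.3% for 7534 genes with at least 10 CPM. Rpl7l1 and Rps19bp1, which carry ribosomal symbols but act in ribosome assembly and in SIRT1 regulation, had log2 fold changes in C26 of 0.25 ± 0.07 (called) and 0.21 ± 0.10 (not called).

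Neighbouring parts of the translation machinery did not move as 1 block in C26 against CT. Beside the counts below, 28.9% of all genes tested rose and 29.2% fell. Rack1, a small-subunit protein outside the symbol rule, rose (0.30 ± 0.07), and Fau, which encodes a ribosomal protein fused to a ubiquitin-like sequence, was not called (-0.00). Of 8 elongation factor genes 3 rose, among them Eef1b2 (0.52) and Eef1g (0.41), and 1 fell, Eef2k (-0.71), the kinase that inhibits Eef2. Of 34 initiation factor genes 7 rose, led by Eif1a (1.29), and 8 fell, among them Eif4a2 (-0.67) and Eif4b (-0.56). Of 11 other transcripts that begin with a TOP motif 5 rose, including Gas5 (0.63), Hnrnpa1 (0.56) and Nap1l1 (0.71), and 3 fell.

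The counts that follow also stand beside 28.9% of all genes higher and 29.2% lower. Genes that build ribosomes went both ways, with 14 of 40 biogenesis factors higher and 7 lower (median 0.12). Heatr1 (1.12), Nop58 (0.80) and Bysl (0.74) had the smallest p. Of 19 RNA polymerase I genes 6 rose, among them Polr2l (0.56) and Polr1a (0.40), and 3 fell, among them Taf1a (-0.51). Of 15 chaperones and rescue factors 4 rose, among them Grwd1 (0.62) and Kpnb1 (0.29), and 3 fell. Of 22 regulators 4 rose and 9 fell: Eif4ebp1, which holds back cap-dependent translation under low mTORC1 activity, rose by 0.97 ± 0.10, and Deptor, an mTOR inhibitor, fell by 1.33 on the log2 scale, as did Eif4ebp2 by 0.37. In contrast to the cytosolic set, 12 of 77 mitochondrial ribosomal protein genes rose and 34 fell, with a median of -0.18, and Mrps35 (-0.87), Mrpl9 (-0.77) and Mrpl1 (-0.73) had the smallest p. Under total-count scaling every list in these 2 paragraphs had more members lower than higher, the mitochondrial one 3 higher and 64 lower. So did all genes tested, with 2292 higher and 7872 lower. In C26-TDCA against C26 none of these lists had a called gene except the regulators, where Larp4, an RNA-binding protein that stabilises ribosomal protein transcripts, rose by 0.38 ± 0.08 (adjusted p = 0.019).

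Markers of other liver cells also differed between CT and C26, where 28.9% of all genes tested rose and 29.2% fell. Of 10 hepatocyte markers 3 rose and 4 fell. Of 12 Kupffer cell markers 11 rose, and their summed level was 298 to 345 CPM in CT, 488 to 747 in C26 and 591 to 779 in C26-TDCA. Of 12 monocyte and neutrophil markers 10 rose (40.1 to 53.8, 63.1 to 147 and 60.0 to 118 CPM), of 12 sinusoidal endothelial markers 9 rose (381 to 462, 470 to 822 and 674 to 892 CPM), and of 12 stellate cell markers 9 rose and 2 fell (310 to 396, 430 to 669 and 538 to 739 CPM). Of 8 cholangiocyte markers tested 4 rose, led by Spp1 and Sox9, which other liver cells can also express (37.9 to 56.0, 262 to 792 and 276 to 659 CPM). The median log2 fold change of the 8 was 0.24, so the summed CPM does not stand for the set. Of 7 erythroid markers tested 5 rose and 1 fell, of 12 proliferation markers 4 rose and 2 fell, of 9 B and plasma cell markers 1 rose and 1 fell, and of 4 T and NK cell markers 2 fell. Under total-count scaling 10 Kupffer, 9 monocyte and neutrophil, 6 sinusoidal endothelial and 6 stellate cell markers rose, and 7 hepatocyte markers fell. Of all 14785 genes tested, 2292 rose and 7872 fell under that scaling. No marker in the table was at 0 in every library. Their part in the ribosomal protein result was not tested. Kupffer sums had a median of 638 CPM in C26 and 696 in C26-TDCA, and sinusoidal endothelial sums 647 and 755. Within C26, replicate 6 had the highest Kupffer and stellate sums, and within C26-TDCA, replicate 7 had the highest hepatocyte and the lowest sinusoidal endothelial sum.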

How the data were processed

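The authors deposited a table of raw read counts per Ensembl gene, 1 column for each of the 22 liver libraries of polyadenylated RNA. Per the submitters' processing notes, HISAT2 2.2.1 and featureCounts 2.0.3 were used with genome build GRCm38, alongside Trimmomatic 0.40, bcl2fastq 2.17, FastQC and DESeq2 1.42.0; roles and order are not stated there. For the annotation release, strand setting and multi-mapping reads, the authors' choices are not given in sources used here. In the deposited counts no gene has a highest count under 10. Libraries held 16.5 M to 28.3 M counts, and their number and depth set the precision given by standard errors.

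Symbols, exon lengths and overlaps came from a GRCm38 annotation (15438 of 15448 genes had a symbol). Genes were filtered with filterByExpr (minimum count 10), scaled by TMM and fitted in 1 model of the 3 groups with edgeR 4.0.16 (quasi-likelihood test, Benjamini-Hochberg over 14785 genes, threshold 0.05) and limma 3.58.1 in R 4.3.3. Every adjusted p of a gene in the text comes from this fit. The scripts were tested on simulated data. Alternatives covered scaling, tool (DESeq2 1.42.0, voomWithQualityWeights), filters, samples in the fit, length and GC content, a replicate block, glmTreat with a log2 limit of 0.3, and leaving out libraries. Promoter windows came from RefSeq (GRCm38.p6). Protein sequences were not analysed here, and values of a few single genes are not reported here.

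The gene set and all lists were chosen with earlier results of these data known. Genes were named by rule: the 10 members with the highest mean CPM, the 6 highest and 6 lowest called in each comparison, paralogs and non-subunit proteins, the member nearest each subunit's median, and up to 3 called genes of each other list. The remaining names, such as Rplp0, Rpl12, Rps27, Rpl22 and the genes ordered by place in the ribosome, were chosen after values were seen.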

Additional observations from a re-analysis of the deposited data

Results flagged for a closer look

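Among the named members and the summed measures, 102 sets of values (1 measure in 1 group) were examined for a library whose gap to its nearest neighbour was large for the group's range, and 22 had one. Chance sets about 1 in 20 such groups apart, and the members are correlated, so the 22 are not separate events. C26 replicate 6 stood above the other C26 libraries in Rpl21 (79.8 CPM), Rpl6 (286 CPM), Rpl7a (299 CPM), Rplp1 (324 CPM), Rps16 (178.5 CPM), Rps24 (244 CPM) and Rpsa (374 CPM). C26-TDCA replicate 7 stood above its group in more genes: Rpl35a (117 CPM), Rpl36a (64.6 CPM), Rpl4 (536.5 CPM), Rpl5 (264 CPM), Rpl6 (254 CPM), Rpl7 (280.2 CPM), Rps16 (149 CPM), Rps24 (231 CPM), Rps27l (63.5 CPM), Rps6 (273 CPM) and Rpsa (340.5 CPM). The same library had the highest ribosomal protein share of its group (1.20% of counts) and the highest median member relative to CT, 0.41 on the log2 scale for the large and 0.50 for the small subunit. Rps27l and Rpl35a, which fell in tumour-bearing mice, were also highest there. C26-TDCA replicate 5 was the lowest of its group in Rps27rt, at 1.09 CPM.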

How the results depend on the processing

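The scaling decided the direction of most ribosomal protein differences from CT. Scaled to the total count, C26 against CT had 7 genes higher and 19 lower, with medians of -0.10 (large) and -0.046 (small). C26-TDCA against CT then had 4 higher and 28 lower, with medians of -0.16 and -0.10. Of all 14785 genes tested, 2292 were higher and 7872 lower in C26, and 2423 and 7397 in C26-TDCA against CT. Signs are listed next for the genes named by rule alone. The named genes whose sign turned in C26 were Rpl10 (-0.17), Rpl21 (-0.10), Rpl28 (-0.13), Rpl31 (-0.11), Rpl36a (-0.050), Rpl4 (-0.018), Rpl5 (-0.083), Rpl6 (-0.12), Rpl7 (-0.18), Rpl7a (-0.27), Rpl7l1 (-0.095), Rps24 (-0.091), Rps4x (-0.069), Rps6 (-0.077), Rps7 (-0.048) and Rpsa (-0.041), and, called under neither scaling, Rps9 (-0.0090) and Rps19bp1 (-0.13). In C26-TDCA against CT they were Rpl10 (-0.25), Rpl21 (-0.087), Rpl28 (-0.19), Rpl31 (-0.12), Rpl36a (-0.12), Rpl4 (-0.065), Rpl5 (-0.13), Rpl7 (-0.21), Rpl7a (-0.29), Rpl7l1 (-0.17), Rps24 (-0.13), Rps4x (-0.11), Rps6 (-0.077), Rps7 (-0.10) and Rpsa (-0.084), and, called under neither scaling, Rpl6 (-0.14), Rpl22l1 (-0.20), Rps9 (-0.23), Rpl36al (-0.21) and Rps27rt (-0.28). In C26-TDCA against C26, Rpl21 (0.01) and Rpl3l (0.02), not called, turned above 0. The median share of counts went to 1.44% (CT), 1.77% (C26) and 1.62% (C26-TDCA) without the 20 most abundant genes, and to 0.963%, 1.15% and 1.06% over the TMM-scaled library size, which turned the order of the medians. The cause was not tested.

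Other settings moved fewer values. The test against a log2 fold change of 0.3 left 15 higher and 1 lower in C26 and 5 higher and 1 lower in C26-TDCA against CT. Over all 14785 genes tested it left 2834 (19.2%) higher and 2591 lower in C26. In C26-TDCA against CT it left 2857 (19.3%) higher and 2508 lower. At this limit the share of members called higher was below that of all genes in each of these comparisons. The lower count in C26 was 1 instead of 2, through Rpl35a, with upper-quartile scaling, when just the 2 groups were fitted, and after taking out the trend on length and GC, which also gave 60 higher in C26-TDCA against CT. With that trend taken out, 29.4% of all genes tested rose in C26-TDCA against CT. DESeq2 gave 66 higher and 2 lower in C26, and voomWithQualityWeights 64 and 2. Of all 14785 genes tested, DESeq2 had 4364 (29.5%) higher and 4354 lower in C26, and voomWithQualityWeights 4326 (29.3%) and 4559. The other alternatives left the counts and subunit medians of the 3 comparisons within 1.5 times or within the spread between replicates.

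Leaving out 1 library at a time gave 55 to 68 higher and 1 to 2 lower in C26, with medians of 0.19 to 0.27 (large) and 0.25 to 0.33 (small), and 54 genes were higher in all 22 fits. C26-TDCA against CT ran from 28 to 43 higher with 2 lower, and medians of 0.12 to 0.17 and 0.15 to 0.22. In the fit of all libraries, 28.9% of all genes tested rose in C26 and 28.7% in C26-TDCA against CT. C26-TDCA against C26 had 0 called in each fit and medians of -0.13 to -0.05 and -0.15 to -0.05.

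Whether replicate numbers shared by the groups pair the libraries was not tested. Correlations of same-numbered libraries' deviations ran from -0.11 to 0.06 for C26 and CT (0 of 6 over 0.1). They ran from -0.25 to 0.43 for C26-TDCA and C26 (5 of 8 over 0.1), and from -0.01 to 0.15 for C26-TDCA and CT (2 of 6). The replicate block gave 63 higher and 1 lower in C26 and 36 higher and 2 lower in C26-TDCA against CT, and combined with the length and GC correction, 1 lower in C26 and 59 higher in C26-TDCA against CT. Over all genes tested the block had 27.4% higher in C26 and 27.3% in C26-TDCA against CT. The combination had 27.8% and 28.1%. Low counts limited Rpl3l, Rpl24, Rpl36al and Rps27rt, whose intervals are wide.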

Other observations

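The 6 CT libraries lay on either side of a gap in ribosomal protein level. In replicates 1, 5 and 8 the median member lay at -0.09, -0.09 and -0.08 on the log2 scale relative to the CT mean, and in replicates 2, 6 and 7 at 0.10, 0.11 and 0.07. Both subunits showed the same levels. Without CT replicate 5, or without CT replicate 8, 28 genes were called higher in C26-TDCA than in CT. With all libraries it was 39, where 28.7% of all genes tested rose. Nothing in the labels separates these libraries, and no comparison was made between them.

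The within-set balance of C26 livers also shifted, apart from any scaling of libraries. Relative to the summed count of the 84 genes, the 5 highest log2 differences of C26 from CT among members with at least 10 CPM were those of Rpl41 (0.43), Rps20 (0.38), Rps12 (0.34), Rplp0 (0.26) and Rplp1 (0.26). The 5 lowest were those of Rps27l (-0.80), Rpl35a (-0.49), Rps2 (-0.31), Rpl22 (-0.23) and Rpl7a (-0.21). Among members under 10 CPM, Rps10 was at 1.46 and Rpl3l at -0.67, both on few reads. The SD of Rps10 was 0.96 in CT and that of Rpl3l 1.34 in C26. In the edgeR fit Rpl3l was at -0.09 ± 0.45, not called. The values relative to the summed count come from the libraries used in the report and carry no test.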
